A study of Oreochromis niloticus with 21 samples.

Results

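A set of 39 genes had an RPKM of 50 or more in every one of 21 libraries from Nile tilapia, Oreochromis niloticus, a tropical fish, out of 17098 genes listed in each library. RPKM is the number of reads on a gene scaled by the length of the gene and by the size of the library. The 39 genes were chosen by these levels alone, so their being abundant everywhere is the rule and not a result. The libraries came from 7 tissues (liver, kidney, spleen, heart, gill, brain and muscle) of fish 6 months old, held for 12 h at 28, 18 or 10 °C, and each tissue gave 1 library at each temperature. The labels name no strain, give no number of fish and do not say whether 1 fish gave several tissues. The study was made to compare responses to low temperature between tilapia and zebrafish, and the zebrafish libraries were not analysed here.

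Genes that nearly all cells express are often called housekeeping genes. They serve tasks that every cell has, such as making proteins, drawing energy from nutrients, keeping the cytoskeleton and folding or removing proteins. Their level need not be constant: a tissue that makes much protein holds more of the translation machinery, and many fish adjust such machinery in the cold. In bulk tissue, a lower value can come from fewer cells of a type or from less RNA per cell, and these cannot be told apart. None of the 39 IDs could be paired with a gene name from the sources used here, so each is given by its ID and no role is assigned. The tissue labels could not be checked against marker genes for the same reason.

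The libraries held 331736 (brain at 10 °C) to 3625665 (muscle at 18 °C) reads on genes, as recovered from the RPKM values. The RPKM values were not in proportion to shares of these reads. ENSONIG00000001504 took 0.452% of the reads in liver at 28 °C and 0.387% in brain at 28 °C. Its RPKM in these libraries was 2700 and 379. Comparisons of RPKM between libraries thus depend on the divisor used for each library. Summed over all genes, RPKM ran from 92011 in brain at 10 °C to 1028634 in liver at 28 °C. Factors by TMM, a trimmed mean of log ratios between libraries, ran only from 0.866 in liver at 10 °C to 1.12 in spleen at 18 °C. TMM scaling of the RPKM values therefore changed them little. A share of reads also depends on how many reads the other genes of the library took. Over all genes, by Spearman's rho, each of the 21 libraries was most like another of the same tissue. Over the 39 genes alone, this held for 13 of 21 libraries by Pearson's r. Brain at 10 °C, heart at 18 °C, liver at 28 °C and gill at 28 °C were taken as standing apart, as in earlier results of these data. Their highest rho with a library of their tissue was 0.731, 0.761, 0.716 and 0.828, while the other libraries of those tissues had a rho of 0.928, 0.881, 0.806 and 0.918 with each other. The gap was thus 0.0900 or more in these tissues. It was 0.0479 for spleen at 28 °C, 0.0175 for kidney at 10 °C and 0.0160 for muscle at 18 °C, although all muscle libraries were rather unlike each other, with a highest rho of 0.755 to 0.771. Main values of the set are also given without the 4 libraries.

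The 39 genes were abundant but far from equal. Their median RPKM over the 21 libraries ran from 146 in ENSONIG00000006871 to 1156 in ENSONIG00000002062, with 504 for the middle gene. The lowest value of a gene in any library was 50.4 to 362, and the highest was 412 to 25383. Among all 17098 genes of a library, the worst rank a gene of the set took in any library lay between 46 and 607. A gene of the set was the most abundant of all in 3 libraries. These were ENSONIG00000021796 in kidney at 28 °C, ENSONIG00000000435 in kidney at 18 °C and ENSONIG00000001504 in spleen at 10 °C.

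ENSONIG00000002062, the gene with the highest median, read 390, 601 and 362 in brain at 28, 18 and 10 °C, 1156, 477 and 399 in gill, and 1864, 3192 and 1793 in heart. It read 1101, 1461 and 1231 in kidney, 1013, 4831 and 5019 in liver, 3191, 4413 and 4395 in muscle, and 585, 577 and 604 in spleen. Muscle, heart and the liver at the lower temperatures were high in this gene. Brain and spleen were low at all temperatures, and gill was low at 18 and 10 °C. Even its lowest value, in brain at 10 °C, was higher than the lowest value of any other gene of the set.

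These genes were short by the length used for RPKM, which need not be that of the whole transcript. The length implied by the RPKM values had a median of 999 bp (135 to 3953 bp), against 2646 bp for all genes, and 10.3% of all genes were shorter than that median. A length of up to 1584 bp, the first quartile of all genes, was found in 29 of the 39, and 5 of the 39 were longer than the all-gene median. Another 48 genes had a median RPKM at or above 146, the lowest median in the set, but fell under 50 somewhere. Their median length was 1234 bp. RPKM divides by length, so a short gene reaches 50 with few reads. The smallest number of reads on a gene of the set in any library was 23 to 746, with a median of 116. How reads that match several places were counted is not given in the sources used here, so a gene with a near-identical copy elsewhere in the genome may carry reads of that copy or lack some of its own.

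**Figure D1:**
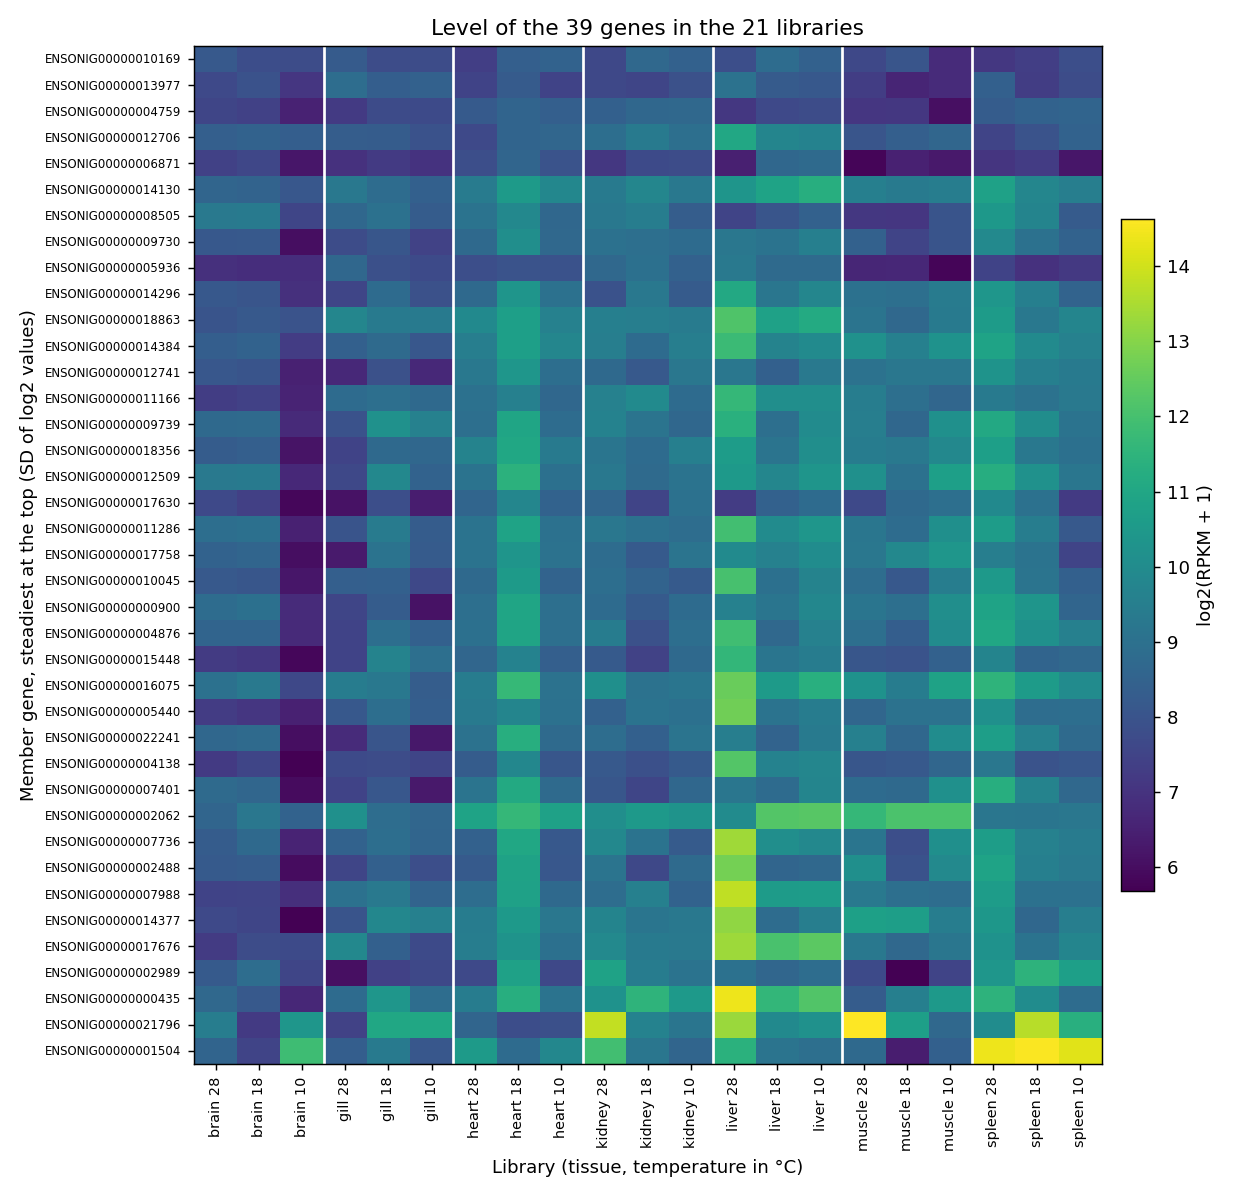
Level of each of the 39 genes (rows, steadiest at the top) in each of the 21 libraries (columns, by tissue and temperature in °C), as log2(RPKM + 1) in colour. The column of brain at 10 °C is dark for most genes and that of liver at 28 °C is bright, while the bottom rows change from library to library by up to 295-fold.

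The border of the set lay mainly in 2 libraries. Brain at 10 °C held the lowest value of 27 of the 39 genes, and 18 of the 39 were under 100 there. Muscle held the lowest value of 8 more: 4 at 18 °C, 3 at 10 °C and 1 at 28 °C. Of the 28 genes that missed the threshold in exactly 1 library, 13 missed it in brain at 10 °C and 11 in gill at 10 °C. Just inside lay ENSONIG00000004138 with 50.4 in brain at 10 °C, ENSONIG00000002989 with 50.6 in muscle at 18 °C and ENSONIG00000014377 with 50.7, from 23 reads, in brain at 10 °C. Just outside lay ENSONIG00000019507 with 47.7 in muscle at 10 °C and ENSONIG00000008163 with 47.4 in brain at 10 °C. The exact 95% Poisson interval of the lowest value, which covers counting error only, reached below 50 for 10 of the 39 genes, and it reached 50 for 5 of the 28 that missed once. Without brain at 10 °C the rule gave 52 genes, and without gill at 10 °C it gave 50. It gave 39 or 40 without any other library.

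The highest values sat elsewhere. Liver at 28 °C held the highest value of 21 of the 39 genes, and heart at 18 °C that of 6. The middle gene of the set stood at 105 in brain at 10 °C, 1366 in spleen at 28 °C, 1458 in heart at 18 °C and 2164 in liver at 28 °C. The libraries with extreme levels of the set thus included 3 of the 4 that stood apart from their tissue over all genes.

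The set took 1.87% of reads in muscle at 10 °C and 27.5% in spleen at 28 °C. In spleen the share was 27.5, 24.9 and 22.1% at 28, 18 and 10 °C, and in muscle it was 3.04, 2.39 and 1.87%. Much of the share of spleen was 1 gene: ENSONIG00000001504 took 14.6, 16.6 and 15.3% of all reads there. The other 38 genes took 12.9, 8.26 and 6.73% in spleen, which overlaps the 12.7% of heart at 18 °C and the 8.59% of kidney at 28 °C. Muscle was low for the 38 genes too, with 2.93, 2.36 and 1.83%, and brain at 10 °C was at 2.26%.

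Steadiness was measured as the SD of log2(RPKM + 1) over the 21 libraries, as a description without a test. This SD ran from 0.53 to 2.30, with a median of 1.16, and of 0.81 without the 4 libraries that stood apart. With all libraries, it had a median of 1.46 in the 48 genes that matched the set in median level but missed the threshold somewhere. That difference follows in part from the rule, which removes genes with a very low value. Even so, the highest value of a gene exceeded its lowest by a median of 29.4 times, by more than 50 times in 13 genes and by less than 8 times in 3.

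The steadiest gene was ENSONIG00000010169, of 2890 bp. It read 287, 219 and 215 in brain at 28, 18 and 10 °C, 305, 216 and 217 in gill, and 162, 338 and 362 in heart. It read 196, 421 and 351 in kidney, 230, 456 and 355 in liver, 196, 264 and 110 in muscle, and 139, 162 and 229 in spleen. All 21 values lay within 4.12 times of each other, and the tissues overlapped. Its tissue means did not differ past the threshold (moderated F-test in limma, adjusted p = 0.472).

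Next came ENSONIG00000013977, of 1675 bp, with an SD of 0.64, and ENSONIG00000004759, of 2229 bp, with an SD of 0.74. ENSONIG00000013977 ran from 96.7 in muscle at 18 °C to 525 in liver at 28 °C, with a median of 218. ENSONIG00000004759 ran from 65.7 in muscle at 10 °C to 412 in kidney at 10 °C, with a median of 211. Small as their spread was, both differed between tissues, with an adjusted p of 0.0481 and 0.00806 in the F-test of limma.

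The most variable gene was ENSONIG00000001504, of 2387 bp, with an SD of 2.30. In spleen it read 21923, 24522 and 19268 at 28, 18 and 10 °C. In the 18 other libraries it had a median of 473 and a range from 83.0 in muscle at 18 °C to 3869 in kidney at 28 °C. Brain at 10 °C, at 3741, was also high, against 379 and 183 at 28 and 18 °C in brain. Spleen therefore did not overlap the other tissues in this gene.

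ENSONIG00000021796 had the next largest SD, 2.14, and no tissue in which it was steadily high. It is the shortest of the set, with an implied length of 135 bp. It read 14516, 797 and 574 in kidney at 28, 18 and 10 °C, 10052, 985 and 1180 in liver, and 25383, 1692 and 412 in muscle. In these tissues the 28 °C library was the high one, by far.
In spleen the order differed, with 1037, 12949 and 2570 at 28, 18 and 10 °C. In gill it read 175, 2046 and 2043, in brain 703, 148 and 1335, and in heart 388, 222 and 231. Its tissue means did not differ past the threshold (adjusted p = 0.257 in the F-test of limma), and its SD about the tissue means, 2.06, was larger than that of the tissue means, 1.34.

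The third most variable gene was ENSONIG00000000435, of 270 bp, with an SD of 1.70. It read 21882, 3102 and 4739 in liver at 28, 18 and 10 °C, 1215, 2899 and 1466 in kidney, and 2821, 1052 and 461 in spleen. It read 413, 291 and 103 in brain, 449, 1326 and 472 in gill, 692, 2484 and 550 in heart, and 308, 756 and 1436 in muscle. Liver was high and did not overlap the other tissues, and brain was low.

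**Figure D2:**
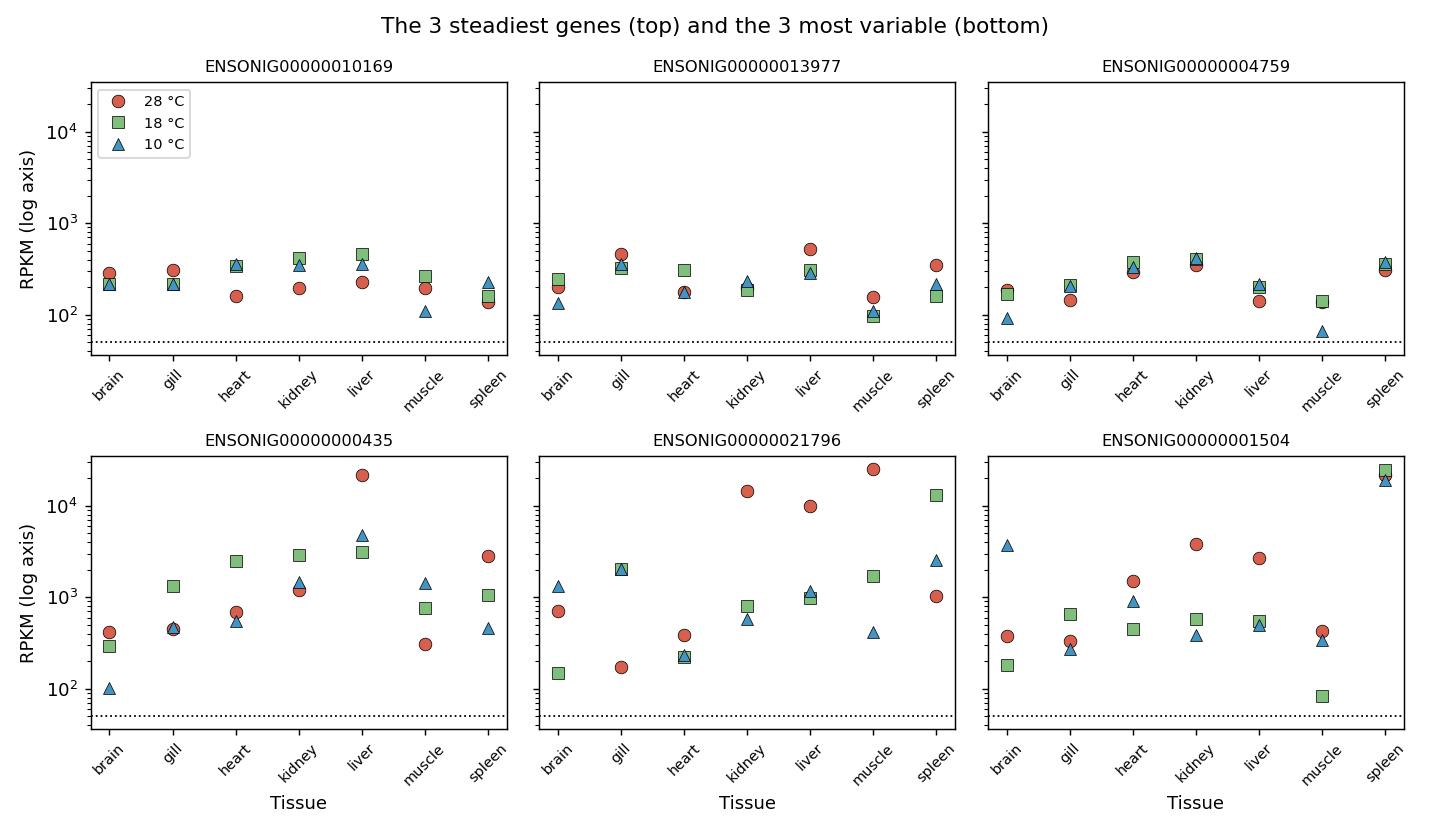
RPKM on a log axis of the 3 steadiest and the 3 most variable genes in the 21 libraries, by tissue, with the temperatures in colour and the threshold of 50 as a dotted line. ENSONIG00000010169 stays between 110 and 456, ENSONIG00000001504 stands at 19268 to 24522 in spleen and ENSONIG00000021796 is high in single libraries.

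Much of the spread was shared, since the values of the genes were correlated from library to library. Pearson's r over the 21 libraries had a median of 0.52 over the 741 pairs of genes, from -0.48 to 0.97, and 148 pairs lay above 0.8. The pairs share libraries and depth, so these values are a description. The median r was 0.39 without the 4 libraries that stood apart. With each value taken relative to the median of the 39 genes in its library, it was -0.02. Taking out the set's own median brings r near 0 by construction, so no conclusion is drawn from this value.

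The set divided loosely by this measure. A group of 27 genes had a mean r above 0.5 with the rest of the set, and 11 had a mean r under 0.4. The 27 were shorter, with a median length of 752 bp against 2229 bp. They varied more over the libraries, with a median SD of 1.19 against 0.91. Relative to the median of the set in each library, however, their median SD was 0.59 against 1.11 for the 11, so the order of the groups turned over. The 27 were picked for following the set and make up most of it. A smaller SD on this scale thus follows from how they were picked. Both groups were formed after these values were seen and got no test.

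Which genes count as steady therefore depends on the scale. Over the deposited values ENSONIG00000010169 ranked first of 39, and relative to the set it ranked 34. ENSONIG00000013977 went from 2 to 27 and ENSONIG00000004759 from 3 to 30. A gene that did not follow the set takes on the swing of the set's median on this scale, so such changes are built in. The steadiest gene relative to the set was ENSONIG00000014296, with an SD of 0.34 there and of 1.01 in the deposited values. In that gene the values were low in brain at 10 °C (120) and high in liver at 28 °C (2164), like those of most of the set. The 10 steadiest genes of both scales shared 2 genes. Without the 4 libraries that stood apart, 6 of the 10 steadiest by the deposited values stayed among the 10 steadiest. ENSONIG00000021796 and ENSONIG00000001504 were the most variable by all 3 measures, with ranks 38 and 39.

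The closest partner of ENSONIG00000010169, by Pearson's r over the 21 libraries, was ENSONIG00000005936, with an r of 0.61, followed by ENSONIG00000006871 with 0.60. ENSONIG00000013977 was most like ENSONIG00000005936, with 0.67, and then ENSONIG00000018863, with 0.61. ENSONIG00000004759 was most like ENSONIG00000002989, with 0.64, and then ENSONIG00000009730, with 0.61. Among the variable genes, ENSONIG00000000435 had close partners in ENSONIG00000004138 and ENSONIG00000007988, each with an r of 0.90. ENSONIG00000021796 had none: its highest r was 0.43, with ENSONIG00000001504, and its next was 0.40, with ENSONIG00000014377. ENSONIG00000001504 itself was most like ENSONIG00000002989, with 0.67.

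Tissue accounted for more of the spread than temperature change common to the tissues. The SD of the 7 tissue means had a median of 0.95 and the SD about the tissue means a median of 0.86, and the first was the larger in 26 of 39 genes. Without the 4 libraries that stood apart these medians were 0.75 and 0.55. Each tissue mean rests on few libraries, so the SD of the means also carries part of the spread within tissues. Tissue took a median of 62.0% of a gene's sum of squares (35.4 to 91.7%) and temperature 5.86% (0.585 to 14.2%). Tissue holds 30% of the degrees of freedom and temperature 10%, so temperature took less than its share in most genes and more in 7. This temperature share counts only change common to the 7 tissues. Temperature change that differs between tissues falls in the rest, together with other spread within tissues. The rest took a median of 30.3% (5.10 to 57.9%) and holds 60% of the degrees of freedom. The tissue share was largest in ENSONIG00000005936, of 3953 bp, the longest gene of the set. It read 416, 502 and 354 in kidney, 638, 435 and 443 in liver, 122, 115 and 114 in brain, and 98.4, 103 and 55.6 in muscle, at 28, 18 and 10 °C. Liver and kidney were high at each temperature, and brain and muscle were low at each.

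**Figure D3:**
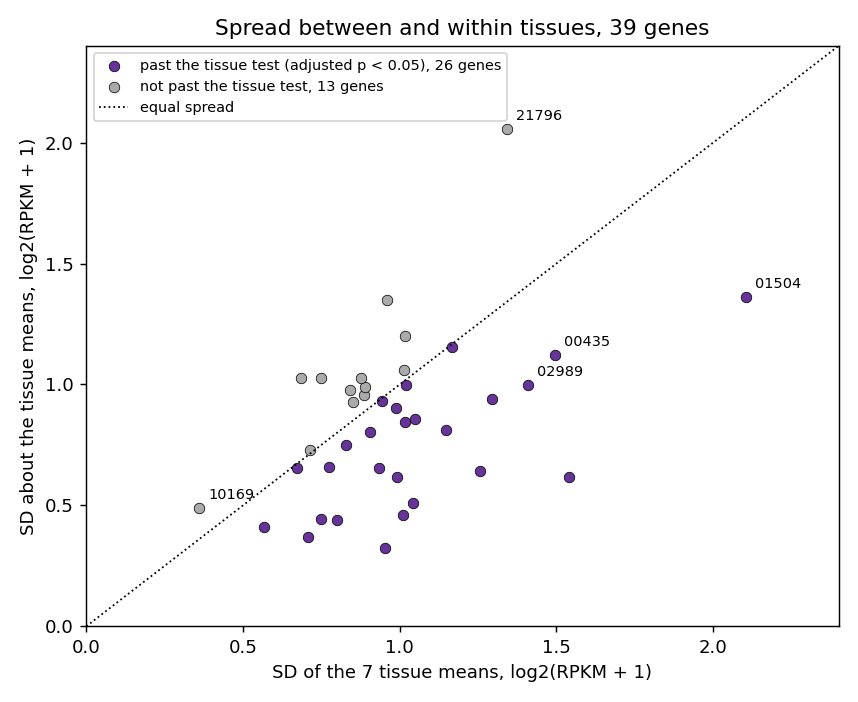
SD of the 7 tissue means (horizontal axis) against the SD about the tissue means (vertical axis), both of log2(RPKM + 1), for each of the 39 genes, with the 26 that passed the tissue test in purple and some genes marked by the end of their ID. Points under the dotted line have a larger SD of the tissue means than SD about them, though the first also carries spread within tissues. There lie 26 genes, ENSONIG00000001504 farthest to the right, and ENSONIG00000021796 has the largest spread within tissues.

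Whether tissues differed was tested in limma with tissue and temperature in 1 model fitted to all 15312 genes tested. The p-values measure spread among libraries left after tissue and temperature. The 3 libraries of a tissue come from 3 temperatures and are not replicates. In the F-test over tissues 26 of the 39 genes passed, against 71.1% of all genes tested. With all libraries the set thus passed about as often as genes in general. Without the 4 libraries that stood apart it passed less often, as given further below. Each tissue was then compared with the mean of the other 6. In this and all later counts, a gene passed when its p, adjusted over all genes tested, was under 0.05, and differences are on the log2(RPKM + 1) scale. The rule bounds the low values of the set, so the counts are given beside those of all genes and no test of the set is made.

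On the RPKM scale, brain was the low tissue of the set. It passed as lower than the other tissues in 19 genes, against 16.3% of all genes tested, and as higher in 0, against 19.8%. The median difference over the 39 genes was -1.39, against -0.11 over all genes tested, and 38 of the 39 were below 0. The largest difference was in ENSONIG00000014377, which read 200, 186 and 50.7 in brain at 28, 18 and 10 °C and 259 to 8970, with a median of 732, in the 18 other libraries. Its difference was -2.80 (SE 0.68, adjusted p = 0.0036 in limma), and no brain value reached the lowest value elsewhere. ENSONIG00000000435 fell by 2.53 (SE 0.69, adjusted p = 0.00787 in limma), and its brain and muscle values overlapped. Without brain at 10 °C this last difference was -2.14 and missed the threshold (adjusted p = 0.0706), and the number of genes lower in brain was 7. It was 9 without brain at 28 °C and 11 without the 4 libraries that stood apart, where the median difference was -0.84. By share of reads on genes, muscle was lower than brain. The set took 6.21, 6.04 and 5.56% in brain at 28, 18 and 10 °C, and 3.04, 2.39 and 1.87% in muscle. Without ENSONIG00000001504 brain at 10 °C was at 2.26%, within the range of muscle.

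On the RPKM scale, liver was the high tissue. It passed as higher in 17 genes, against 12.5% of all genes tested, and as lower in 0, against 32.3%. The median over the 39 genes was 1.15, and over all genes tested it was -0.40. ENSONIG00000017676 read 10226, 4311 and 5334 in liver at 28, 18 and 10 °C and 150 to 1238, with a median of 599, in the 18 other libraries. Its difference was 3.58 (SE 0.45, adjusted p = 1.22e-05 in limma), and every liver value lay above all others. ENSONIG00000000435, described above, was higher in liver by 3.16 (SE 0.69, adjusted p = 0.00192 in limma). Without liver at 28 °C 11 genes passed as higher in liver, and without liver at 10 °C also 11. The number was 12, with a median difference of 0.77, without the 4 libraries that stood apart. There 5112 of 13737 genes tested passed in liver in either direction. By share of reads on genes, liver was not the highest. There the set took 8.81, 7.85 and 7.79% at 28, 18 and 10 °C. It took 12.9% in heart at 18 °C, 11.5% in kidney at 28 °C and 22.1 to 27.5% in spleen, where much was 1 gene.

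Muscle had calls in both directions. It passed as lower in 7 genes, against 23.3% of all genes tested, and as higher in 1, against 11.6%. The median difference of the 39 genes was -0.04, and it turned to 0.03 with TMM scaling, 0.13 with median-of-ratios scaling and 0.15 with upper-quartile scaling, so it has no direction. The 7 lower genes were long for the set, with a median of 2387 bp against 756 bp for the rest, and included the second and the third steadiest genes. ENSONIG00000001504 read 431, 83.0 and 344 in muscle at 28, 18 and 10 °C. Its difference was -2.44 (SE 0.77, adjusted p = 0.0223 in limma), and its muscle values overlapped those of brain and gill, among others. ENSONIG00000002989 read 204, 50.6 and 183 in muscle, with a difference of -1.94 (SE 0.63, adjusted p = 0.0257 in limma). Without muscle at 18 °C neither passed, with differences of -1.98 and -1.04 (adjusted p = 0.144 and 0.288). Without muscle at 28 °C the first did not pass, at -2.61 (adjusted p = 0.0633). The 1 gene higher in muscle was ENSONIG00000002062, whose values are given above, by 1.93 (SE 0.50, adjusted p = 0.00785 in limma). Both directions together, the number that passed in muscle was 8, and it was 4, 3 and 5 without muscle at 28, 18 and 10 °C. It was 5 with median-of-ratios and with upper-quartile scaling, against 5028 of 15344 and 5048 of 15255 genes tested.

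Spleen passed as higher in 2 genes, against 10.7% of all genes tested, and as lower in 0, against 19%. ENSONIG00000001504 was higher by 5.20 (SE 0.77, adjusted p = 0.000186 in limma), the largest difference of the set in any tissue. ENSONIG00000002989 read 1340, 2846 and 1712 in spleen at 28, 18 and 10 °C, and elsewhere it was high in kidney at 28 °C (1841) and heart at 18 °C (1770). Its difference was 2.61 (SE 0.63, adjusted p = 0.00596 in limma). Without spleen at 18 °C it was 2.42 and missed the threshold (adjusted p = 0.0506), which leaves 1 gene higher in spleen. The median over the 39 genes was 0.60, against -0.14 over all genes tested. In spleen 6 genes passed without the 4 libraries that stood apart, 5 of them higher. Of all 13737 genes tested there, 4664 passed in either direction.

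Gill passed as lower in 4 genes, against 16.2% of all genes tested, and as higher in 0, against 16.3%. The median over the 39 genes was -0.83, and it was -0.42 without the 4 libraries that stood apart. ENSONIG00000022241 read 109, 261 and 76.4 in gill at 28, 18 and 10 °C, with a difference of -2.07 (SE 0.61, adjusted p = 0.0154 in limma). ENSONIG00000000900 read 187, 312 and 68.6, with a difference of -1.90 (SE 0.57, adjusted p = 0.0177 in limma). Brain at 10 °C was low too, at 63.6 and 108. Neither passed without gill at 28 °C, where the differences were -1.79 and -1.94, or without gill at 10 °C, where they were -1.90 and -1.48. The number of genes that passed in gill was 0 without gill at 10 °C, 2 without gill at 28 °C and 7 without brain at 10 °C.

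Kidney and heart differed least. Kidney passed as higher in 1 gene, against 12.6% of all genes tested, and as lower in 0, against 11.5%. The gene was ENSONIG00000005936, with a difference of 1.15 (SE 0.32, adjusted p = 0.0144 in limma). Without the kidney library at 28, 18 or 10 °C the difference was 1.27, 0.99 or 1.17 and missed the threshold, with an adjusted p of 0.0502, 0.121 or 0.0675 in limma. In kidney 2 genes passed without heart at 18 °C or without muscle at 28 °C. Heart passed in 0 genes, in either direction, against 20.9% of all genes tested. At an unadjusted p under 0.05 in limma it had 3 genes, against 4952 of all 15312 genes tested. With limma-voom on the recovered reads 1 gene passed in heart, against 3735 of 15311 genes tested. The median differences were -0.07 in kidney and 0.43 in heart. The heart value was 0.01 without the 4 libraries that stood apart, among them heart at 18 °C. No tissue passed in 9 of the 39 genes, among them ENSONIG00000010169 and ENSONIG00000021796, the steadiest gene and one of the most variable. How many of all genes tested passed in no tissue was not counted, so the 9 cannot be read as a trait of the set.

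**Figure D4:**
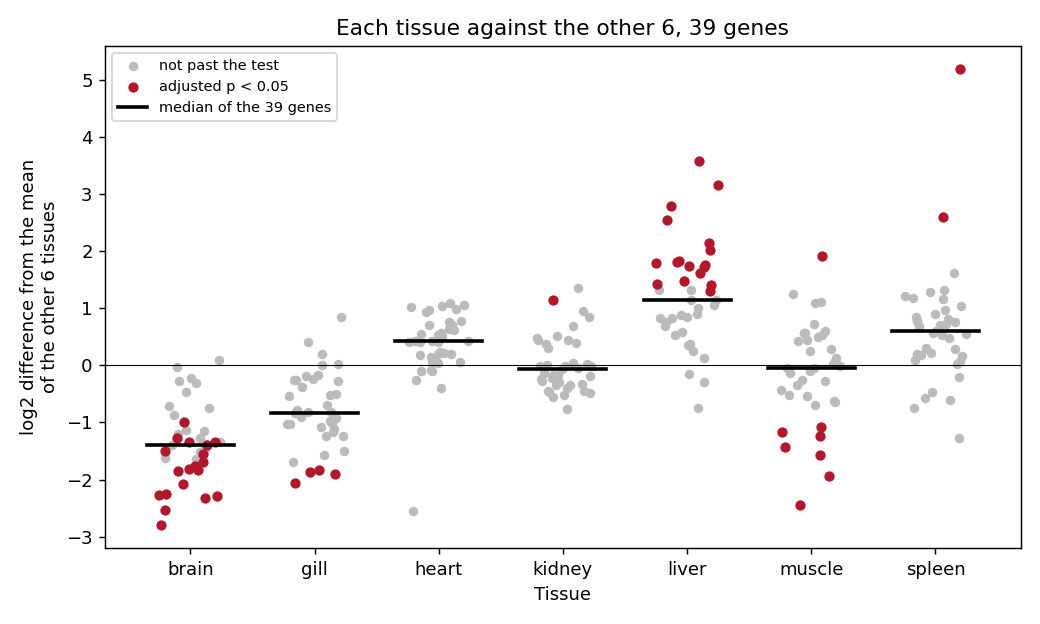
Difference of each tissue from the mean of the other 6 on the log2(RPKM + 1) scale, 1 point a gene for the 39 genes, with genes past an adjusted p of 0.05 in red and the median of the 39 as a black bar. Brain is low (19 genes past the test, median -1.39) and liver high (17 genes, median 1.15), and in spleen ENSONIG00000001504 stands alone at 5.20.

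Temperature was tested as a change common to the 7 tissues, with tissue as a block. A p-value thus reflects the agreement between tissues, and variation between fish cannot be told apart in it from other spread. No gene of the set passed at 10 against 28 °C, at 18 against 28 °C or at 10 against 18 °C, as in the whole table, where 0% of the genes tested passed in each. At an unadjusted p under 0.05 in limma, 1 gene of the set passed at 10 against 28 °C, against 7.31% of all genes tested. At 18 against 28 °C 0 did, against 4.17%, and at 10 against 18 °C 0 did, against 3.93%. With limma-voom on the recovered reads 0 genes of the set passed after adjustment in all 3 comparisons.

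The differences between 10 and 28 °C lay mostly on 1 side without passing the test. Their median over the 39 genes was -0.58, against -0.07 over all genes tested, and 35 of 39 were below 0. The median was -0.27 without the 4 libraries that stood apart. At 18 against 28 °C it was -0.08, with 23 of 39 below 0. There it was -0.35 without the 4 libraries, -0.35 without heart, 0.12 without liver and 0.08 without spleen. At 10 against 18 °C it was -0.42, with 37 of 39 below 0, and 0.02 without the 4 libraries.

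ENSONIG00000010045 had the smallest p at 10 against 28 °C. With the tissues in alphabetical order, from brain to spleen, it read 292, 331, 432, 480, 4167, 469 and 1443 at 28 °C. At 18 °C it read 270, 347, 1513, 366, 505, 280 and 564, and at 10 °C 74.4, 195, 366, 300, 815, 708 and 343. The 10 °C value was the lower one in 6 of 7 tissues and higher in muscle. The difference was -1.07 (SE 0.49, unadjusted p = 0.0444 and adjusted p = 0.667 in limma).

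The 10 °C value was below the 28 °C value in 7 of 7 tissues in 2 genes, and 1.36% of all genes tested were so. These were ENSONIG00000007988, with a difference of -0.96 (SE 0.48, adjusted p = 0.667 in limma), and ENSONIG00000011166, with -0.62 (SE 0.34, adjusted p = 0.673), the latter named after its values were seen. ENSONIG00000007988 read 176, 515, 465, 465, 14128, 632 and 1567 at 28 °C in the same order of tissues, and 118, 367, 431, 361, 1588, 471 and 516 at 10 °C. Liver differed most in it and heart least. On the other side, ENSONIG00000010169 was at 0.23 (SE 0.33, adjusted p = 0.840 in limma) and ENSONIG00000006871 at 0.23 (SE 0.36, adjusted p = 0.850). The second of these was at -0.11 without liver.

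At 18 against 28 °C the 18 °C value was higher in 7 of 7 tissues in 1 gene, ENSONIG00000006871, and 0.411% of all genes tested were so. It read 169, 123, 228, 138, 88.5, 54.5 and 134 at 28 °C in the same order of tissues, and 193, 146, 386, 207, 405, 90.7 and 154 at 18 °C. The step was large in liver and small in brain, gill and spleen. The difference was 0.70 (SE 0.36, adjusted p = 1.00 in limma). ENSONIG00000010169 was at 0.41 (SE 0.33), ENSONIG00000001504 at -1.29 (SE 0.66) and ENSONIG00000017676 at -0.52 (SE 0.39), each with an adjusted p of 1.00 in limma. At 10 against 18 °C the named genes were ENSONIG00000001504 at 0.72 (SE 0.66), ENSONIG00000018863 at 0.00 (SE 0.36), ENSONIG00000008505 at -0.72 (SE 0.40) and ENSONIG00000000900 at -0.81 (SE 0.49), each with an adjusted p of 0.934 or more in limma.

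Within single tissues the set shifted as a body in some libraries. These are comparisons of 1 library with 1, without a test. In brain, the median of the 39 genes at 10 against 28 °C was -1.41, with 36 of 39 lower, where 51.4% of all genes tested were lower. In heart, it was 1.2 at 18 against 28 °C, with 37 of 39 higher, against 43.3% of all genes tested. In liver, it was -1.35 at 18 against 28 °C, with 32 of 39 lower, against 41.1%, and -1.01 at 10 against 28 °C, with 27 of 39 lower, against 43.8%. Each of these uses a library that stood apart from its tissue. Spleen has none. There the median was -1.27 at 10 against 28 °C, with 33 of 39 lower, against 42.6% of all genes tested, and -0.93 at 18 against 28 °C, with 32 of 39 lower, against 40.7%. The median over all genes tested was -0.05 in the brain comparison and 0.00 in each of the others. Without ENSONIG00000001504, the set's share of reads changed little in liver, with 8.36, 7.60 and 7.61% at 28, 18 and 10 °C. The RPKM summed over all genes was 1028634, 276809 and 335145 there. The share was 5.82 and 2.26% in brain at 28 and 10 °C. It was 6.54 and 12.7% in heart at 28 and 18 °C, and 12.9 and 6.73% in spleen at 28 and 10 °C.

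Genes outside the set that had an RPKM of 50 or more in both libraries of a comparison lay on the same side. In brain at 10 against 28 °C there were 51 such genes, with a median of -0.65 and 78.4% lower. In heart at 18 against 28 °C there were 188, with a median of 1.03 and 81.4% higher. In liver at 18 against 28 °C there were 361, with a median of -1.04 and 76.7% lower. In spleen at 10 against 28 °C there were 123, with a median of -0.92 and 77.2% lower. The shift was thus shared by other abundant genes, and whether the set differs from those was not tested. The values over all genes tested cannot show whether less abundant genes shifted too. The log2(RPKM + 1) scale shrinks changes of low values. A gene with no reads in both libraries counts as neither higher nor lower, which lowers the shares of all genes tested given above. Of the 17098 genes, 11377 were above 0 in liver at 28 °C and 10973 at 18 °C. In liver at 18 against 28 °C, 38.8% of all genes tested were higher and 41.1% lower. In the pairs that use no library that stood apart, other than spleen, the median of the 39 genes was nearer 0. It lay between -0.39 and -0.08 in kidney and between -0.22 and 0.51 in muscle, and was -0.12 in heart at 10 against 28 °C. It was 0.04 in brain at 18 against 28 °C, 0.34 in liver at 10 against 18 °C and -0.58 in gill at 10 against 18 °C. Some of these pairs were still one-sided. In liver 34 genes were higher and 5 lower, in gill 4 and 35, and in heart 10 and 29. Of the other genes at an RPKM of 50 or more in both libraries, 67.4% were higher in liver. In gill 62.9% of them were lower, and in heart 61.7%. Of all genes tested these shares were 36.3, 43.5 and 53.7%. Kidney had 13 and 26 at 18 against 28 °C, where 53.1% of all genes tested were lower. Muscle had 12 and 27 in that comparison, against 44.7% lower, and 28 and 11 at 10 against 18 °C, against 41.1% higher. Brain was more even, with 24 and 15, where 54.0% of all genes tested were higher. Against gill at 28 °C, which stood apart, the median was 0.61 at 18 °C, with 30 higher and 9 lower. There 43.3% of all genes tested were higher, and 61.9% of the other genes at 50 or more in both. At 10 °C the median was -0.05, with 19 and 20, where 44.5% of all genes tested were higher.

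**Figure D5:**
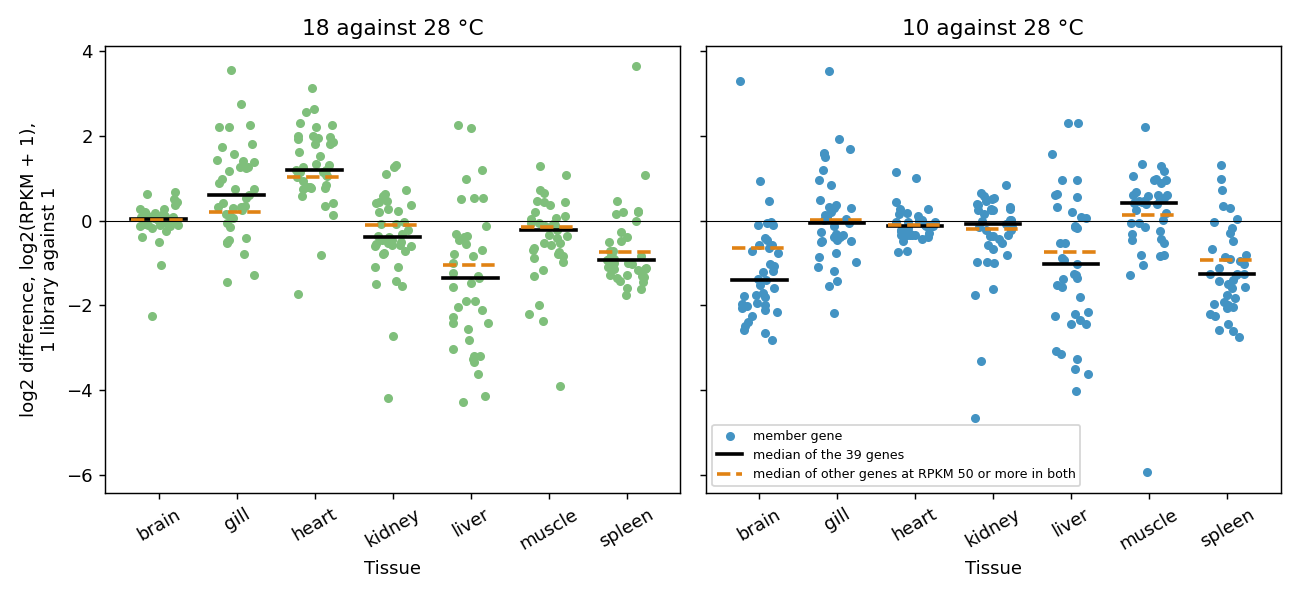
Difference from 28 °C within each tissue on the log2(RPKM + 1) scale, 1 library against 1, at 18 °C (left) and 10 °C (right), with 1 point for each of the 39 genes, their median as a black bar and the median of the genes outside the set at an RPKM of 50 or more in both libraries as a dashed orange bar. In brain at 10 °C the black bar is at -1.41 and the orange bar at -0.65, and in heart at 18 °C they are at 1.2 and 1.03.

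A temperature response that differs between tissues was tested with a slope for each tissue, which leaves 7 residual degrees of freedom. No gene of the set passed the F-test for a difference of slopes, against 0.0327% of all genes tested. At an unadjusted p under 0.05 in limma 1 did, against 8.98% of all genes tested. This was ENSONIG00000021796, with an adjusted p of 0.536 in limma. Its 25383 in muscle at 28 °C against 412 at 10 °C, and its 175 in gill at 28 °C against 2043 at 10 °C, run in opposite directions. With limma-voom, 3 genes of the set had an unadjusted p under 0.05 and 0 passed after adjustment, against 592 and 0 of 15311 genes tested.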

How the data were processed

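RNA from 7 tissues at 3 temperatures was prepared with an Illumina TruSeq kit, per the labels' protocols. The deposited files give 1 RPKM value per gene and library, computed by the authors. The submitters' processing notes name TopHat, Bowtie and HTSeq, with no versions. Neither the genome build nor the counting of multiply matched reads is given in the sources used here. The set and all gene lists were chosen with earlier results of these data known. The lists were written as symbols, and 0 of 17098 IDs matched the RefSeq table, so none was used.

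Whole reads and lengths were recovered for 17093 of 17094 genes above 0, within 0.0001, and served for depth and counting intervals. The values log2(RPKM + 1), on which low genes change by less, were analysed with limma-trend (limma 3.58.1, R 4.3.3) for the 15312 genes that reached an RPKM of 1 in 3 or more libraries. The model with tissue and temperature left 12 residual degrees of freedom. All tests were two-sided. Within each comparison p-values were adjusted over all genes by Benjamini-Hochberg, with 0.05 as the threshold. The scripts were tested on simulated data. Named were the 3 steadiest and 3 most variable genes with their 2 closest partners, the 2 highest medians, the genes nearest the threshold, and at most 2 higher and 2 lower genes in each comparison: past the threshold by size, otherwise by smallest p. Genes named beyond this rule (the other threshold neighbours, the steadiest relative to the set, the largest tissue share, the partner of the most variable gene) were chosen after their values were seen. Alternatives covered scaling, pseudocount, filter, limma-voom on the recovered reads and leaving out libraries or tissues.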

Additional observations from a re-analysis of the deposited data

Results flagged for a closer look

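Within each temperature, the 7 tissues were searched for a single value far from the rest, in 24 sets of values. Of these, 9 held one, where chance gives about 1 in 20 for normally distributed values. The values were searched without a log transform, so that rate need not hold here. The sets overlap, and most are of the 6 genes that were named for their small or large spread, so the number is not a finding in itself.

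Spleen stood out in the share of reads on the 39 genes, at 27.5% at 28 °C and 22.1% at 10 °C. ENSONIG00000001504 stood out in spleen at each temperature, with an RPKM of 21923, 24522 and 19268 at 28, 18 and 10 °C. ENSONIG00000000435 stood out in liver, with 21882 at 28 °C and 4739 at 10 °C. ENSONIG00000021796 stood out in spleen at 18 °C, with 12949. The median RPKM of the 39 genes stood out in heart at 18 °C, at 1458.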

How the results depend on the processing

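Of the results that answer a comparison, none changed direction with a call. The number of genes in the set was 70 at an RPKM of 25, 16 at 100, and 67 where 1 library could fall short. It was 40 with TMM scaling and 42 with median-of-ratios scaling, and 39, of which 37 were shared, with upper-quartile scaling. It was 57 without the 4 libraries that stood apart, and 39 to 52 without 1 library. Relative to the median of the set in each library, a measure chosen after seeing the data, the median SD was 0.74 and that of tissue means 0.55. Without the 4 libraries the SD about tissue means was 0.55.

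The number of genes past the F-test over tissues was 20 to 33 under the other settings with all libraries. It was 22 without the 4 libraries and 19 to 28 without 1 library. Of all genes tested, 10263 of 13737 passed without the 4 libraries, so the set passed less often there. With an RPKM of 1 asked in all 21 libraries 1331 of 2367 passed. In the other settings with all libraries 10450 to 11802 of all genes tested did. Without 1 library the numbers past the test were 7 to 20 in brain, 0 to 7 in gill, 0 to 0 in heart, 0 to 2 in kidney, 11 to 19 in liver, 3 to 8 in muscle and 1 to 3 in spleen. Without the 4 libraries they were 11 in brain, 3 in kidney and 6 in spleen, against 4246, 3746 and 4664 of 13737 genes tested. Brain, with 19 in the main fit, had 13 with median-of-ratios scaling, against 5648 of 15344 genes tested. It had 16 with a pseudocount of 0.1, against 5115 of 15312. It also had 13 with an RPKM of 1 asked in all 21 libraries, against 391 of 2367. With limma-voom the numbers past the test were 23 in brain, 8 in gill, 1 in heart and 4 in spleen. Over all 15311 genes tested there they were 4764, 4905, 3735 and 3760. With a pseudocount of 5 the numbers in the set were 2 in kidney and 4 in spleen, against 3166 and 3776 of 15312 genes tested. With an RPKM of 1 asked in all 21 libraries kidney had 0, against 171 of 2367 genes tested. There the difference of ENSONIG00000005936 was the same, 1.15, with an adjusted p of 0.071 in limma. With median-of-ratios or upper-quartile scaling muscle had 5. With limma-voom the median of all genes in liver moved from -0.40 to 0.01 (log2), and that of the 39 genes from 1.15 to 1.32. The cause was not tested.

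The median over the set at 10 against 18 °C was 0.0171 without the 4 libraries. Signs that turned, all without a call, were those of ENSONIG00000006871 at 10 against 28 °C (-0.11 without liver), ENSONIG00000001504 at 10 against 18 °C (-0.0243 without the 4 libraries) and ENSONIG00000018863 at 10 against 18 °C (-0.000285 without gill, -0.0557 without liver, -0.109 without muscle and -0.0798 without spleen). Without a tissue, the set's median lay between -0.64 and -0.35 at 10 against 28 °C, between -0.35 and 0.12 at 18 against 28 °C, and between -0.56 and -0.24 at 10 against 18 °C. No analysis paired by fish was possible because the labels do not say which libraries share a fish, and tissue was the block instead. Without that block 0 genes passed in the 3 temperature comparisons.

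With 1 library for each tissue and temperature, differences between fish, tissue samples and temperatures cannot be told apart within a tissue. Depth was lowest in brain at 10 °C, where the set's lowest values rest on as few as 23 reads.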
